A study of Mus musculus with 16 samples.

Results

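The kappa variable genes were all genes in the deposited expression table whose symbol begins with Igkv, which gave 160 of 51912 genes. Each is annotated as a variable segment gene, or a pseudogene of one, of the immunoglobulin kappa light chain. The 16 libraries were RNA-seq of cMyc+ germinal center (GC) B cells sorted from spleens of cMyc-GFP reporter mice (cMyc gfp/gfp), 6 to 15 weeks old, on day 7 after intraperitoneal immunization with sheep red blood cells. There were 4 libraries for each of 4 subpopulations, and all shared the gate B220+ CD38low CD95+ cMycGFP+. The cMyc+prePB cells, a candidate plasmablast precursor gate, were CD69hi. The other gates were CD23hi CD21/35hi (cMyc+early), CD23int CD21/35int (cMyc+lateCD23int) and CD23lo CD21/35lo (cMyc+lateCD23lo). Nothing in the sources used here says whether libraries of a subpopulation, or libraries with the same replicate number, came from separate or shared animals, so that p-values measure the spread between these libraries, which may be technical.

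A developing B cell assembles its kappa chain gene by joining 1 variable (V) segment to 1 joining (Igkj) segment, and the joined exon is then spliced to the constant exon, Igkc. The V segment carries most of the antigen-contacting surface of the light chain, and each cell usually expresses a single light chain, so the V gene reads of a sorted population reflect which cells it holds and how much light chain RNA each one makes. In GC B cells the joined exon is altered further by somatic hypermutation, while cells on the way to plasma cells raise immunoglobulin transcription. In bulk samples, fewer cells that use a V gene and less RNA per such cell cannot be told apart.

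All 160 genes matched the GENCODE vM21 annotation of GRCm38, on chromosome 6, where they lie 18.4 to 3166 kb from Igkj1. There are 100 annotated V genes and 60 annotated V pseudogenes among them. Of the 160, 88 were above 3 reads in all 16 libraries, 38 never exceeded 3 reads in any library and were all pseudogenes, and 34 were in between. A mean normalized count of at least 10, the minimum for the gene-by-gene tests, was reached by 102 genes, of which 7 were pseudogenes. These normalized counts are read counts divided by a scaling factor per library, as the authors deposited them, and recovered totals ranged from 19812080 to 25795815 reads per library, with 50603 to 134672 of them on Igkv genes.

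Sequences are shown for the 5 genes on which the results turn, as the last 300 bases of the germline coding sequence, which leave out most of the leader. Igkv6-23 (chr6:70260409-70260955, minus strand) and Igkv6-15 (chr6:70406469-70406992, minus strand) were the most abundant pair, and their coding sequences differ at 19 of 347 positions, of which the 16 shown are in capitals.
Igkv6-23: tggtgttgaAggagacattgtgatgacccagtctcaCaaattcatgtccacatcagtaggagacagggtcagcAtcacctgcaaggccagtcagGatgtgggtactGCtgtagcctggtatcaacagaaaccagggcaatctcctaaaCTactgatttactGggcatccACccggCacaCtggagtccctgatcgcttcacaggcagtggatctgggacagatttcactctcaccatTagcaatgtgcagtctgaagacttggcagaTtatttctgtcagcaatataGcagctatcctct
Igkv6-15: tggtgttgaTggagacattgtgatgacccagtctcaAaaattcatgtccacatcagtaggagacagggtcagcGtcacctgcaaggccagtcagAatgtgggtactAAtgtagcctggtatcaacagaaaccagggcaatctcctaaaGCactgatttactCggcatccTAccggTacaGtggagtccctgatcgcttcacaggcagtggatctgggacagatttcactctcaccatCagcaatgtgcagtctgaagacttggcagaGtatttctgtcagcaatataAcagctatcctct
Igkv1-117 (chr6:68121046-68121827, plus strand) and Igkv1-110 (chr6:68270485-68271267, plus strand) were the genes that passed in limma as lower in cMyc+early than in cMyc+lateCD23lo. Their coding sequences differ at 10 of 359 positions, all of them shown in capitals.
Igkv1-117: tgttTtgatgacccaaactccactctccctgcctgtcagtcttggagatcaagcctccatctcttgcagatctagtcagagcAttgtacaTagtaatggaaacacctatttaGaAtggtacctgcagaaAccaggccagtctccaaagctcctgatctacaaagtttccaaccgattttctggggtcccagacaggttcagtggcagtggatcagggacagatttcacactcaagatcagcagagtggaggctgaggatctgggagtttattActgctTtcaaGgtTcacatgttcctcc
Igkv1-110: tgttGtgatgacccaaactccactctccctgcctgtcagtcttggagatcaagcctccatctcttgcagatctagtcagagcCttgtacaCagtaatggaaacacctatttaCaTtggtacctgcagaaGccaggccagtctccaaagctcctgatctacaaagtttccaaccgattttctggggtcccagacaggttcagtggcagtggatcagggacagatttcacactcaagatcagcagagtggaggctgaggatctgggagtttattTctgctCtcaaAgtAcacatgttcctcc
Igkv7-33 (chr6:70058632-70059199, minus strand) was higher in cMyc+prePB, and capitals mark 62 of the 77 positions (of 365) at which it differs from Igkv8-30, the member of equal length that differs from it least.
Igkv7-33: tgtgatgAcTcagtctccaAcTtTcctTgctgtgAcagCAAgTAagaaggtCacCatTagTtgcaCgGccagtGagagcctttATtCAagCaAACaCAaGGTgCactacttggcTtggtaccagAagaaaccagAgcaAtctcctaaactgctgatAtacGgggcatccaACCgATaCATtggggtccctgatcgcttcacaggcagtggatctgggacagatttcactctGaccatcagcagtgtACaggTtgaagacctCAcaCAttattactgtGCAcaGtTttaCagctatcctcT
All 5 come from the GENCODE vM21 transcripts (GRCm38), were compared position by position without gaps, and are not sequences of the hypermutated transcripts in these cells. Reads that match several V genes about equally well are divided among them by estimation in RSEM, so values of close relatives are uncertain to that extent. Only 8 of the 160 genes, with 3.80% of Igkv counts, have a relative that is at least 98% identical over the transcript, and for the 10 most abundant genes the closest relative is 88.2 to 97.5% identical.

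Transcripts of a few V genes made up much of the repertoire in every subpopulation. Igkv6-23 held a mean of 9.02% of the Igkv sum over the 16 libraries and Igkv6-15 held 8.85%, followed by Igkv10-96 with 4.97%, Igkv12-44 with 3.46% and Igkv8-30 with 3.46%. Igkv1-135 (2.91%), Igkv2-137 (2.72%), Igkv14-111 (2.60%), Igkv1-117 (2.40%) and Igkv1-110 (2.30%) completed the 10 most abundant. Together these 10 genes held 42.7%, 14 genes were needed to reach 50% of the sum and 51 to reach 90%. Dividing by transcript length kept 8 of these 10 genes among the 10 highest. The 60 pseudogenes contributed between 0.349 and 0.822% of the Igkv sum in a library, and the highest of them was Igkv4-77.

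**Figure D1:**
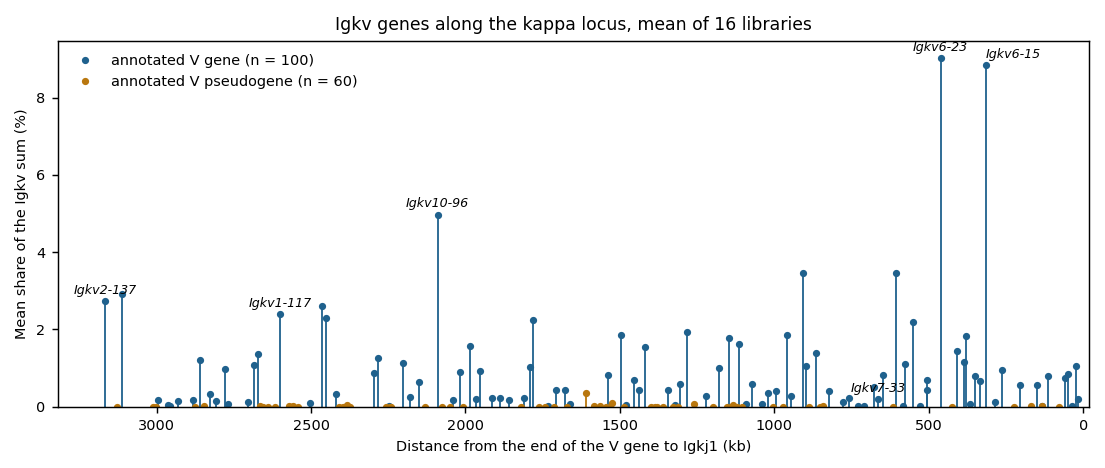
Mean share of the Igkv sum over 16 libraries (y axis, percent) against distance from each gene to Igkj1 (x axis, kb), for 100 annotated V genes in blue and 60 annotated V pseudogenes in orange. Igkv6-23 and Igkv6-15 stand above all others at 9.02 and 8.85%, while Igkv7-33, which differed between subpopulations, had a low mean share.

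Use ran along the whole locus and was not confined to its Igkj-proximal end, as the plot of share against distance to Igkj1 shows. Genes within 800 kb of Igkj1 held 39.4% of the sum (range 36.0 to 42.3%), those at 800 to 1600 kb 23.2%, those at 1600 to 2400 kb 18.2% and those beyond 2400 kb 19.2%. Per annotated functional gene this was 1.19%, 0.927%, 0.829% and 0.958%. V genes on the plus strand, which have the orientation of Igkj1 and join it by deletion, while the others join by inversion, held 30.8% of the sum (range 27.4 to 34.3%).

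Genes beyond 2400 kb had a larger share in cMyc+prePB than in cMyc+early, while the neighbouring genes at 1600 to 2400 kb had a smaller one. Beyond 2400 kb the share was 22.5, 21.7, 22.0 and 23.1% in cMyc+prePB replicates 1 to 4 and 15.4, 18.0, 16.3 and 15.7% in cMyc+early. It was 15.5, 18.3, 18.0 and 18.3% in cMyc+lateCD23int and 18.0, 21.8, 20.2 and 21.8% in cMyc+lateCD23lo. The cMyc+prePB and cMyc+early libraries did not overlap, while the lowest cMyc+lateCD23lo library was just above the highest cMyc+early library and the highest one just above the lowest cMyc+prePB library. At 1600 to 2400 kb the share was 16.4, 18.8, 14.8 and 12.7% in cMyc+prePB and 21.1, 19.5, 20.6 and 21.3% in cMyc+early, again without overlap and in the other direction, so that no single direction held for the distal part of the locus. These shares were chosen after values had been seen, depend on where the bins are set, and were not tested.

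V gene families, groups of related segments named by the number after Igkv, were of unequal weight. Igkv6, with 9 members, held 22.1 ± 2.64% (SD, n = 16 libraries) and Igkv4, the largest family with 33 members, 17.1 ± 2.23%. Igkv8 held 11.9 ± 2.82%, Igkv1 8.36 ± 1.95%, Igkv12 7.71 ± 0.626% and Igkv10 6.04 ± 1.18%. The remaining 14 families each held less than 5% on average, and Igkv18 and Igkv20 were the lowest.

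Several families, chosen after values had been seen, had different shares between subpopulations, given here as a description without a test. Shares of a library have a fixed sum, so that families do not vary independently. Igkv8 made up 19.1, 16.6, 13.5 and 12.1% of the sum in cMyc+prePB replicates 1 to 4 but 8.91, 9.97, 9.35 and 9.89% in cMyc+early, so that every cMyc+prePB library lay above every cMyc+early library. Igkv17 went the other way, with 1.09, 1.51, 1.66 and 1.60% in cMyc+prePB and 2.94, 3.10, 2.87 and 2.78% in cMyc+early. Igkv1 held 5.98, 8.02, 5.81 and 5.78% in cMyc+early and 8.65, 12.1, 8.74 and 10.9% in cMyc+lateCD23lo, and these libraries did not overlap either. Igkv6 was at 24.7 ± 1.33% in cMyc+lateCD23int and 19.5 ± 3.25% in cMyc+prePB, where replicates 1 and 2 were lowest.

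**Figure D2:**
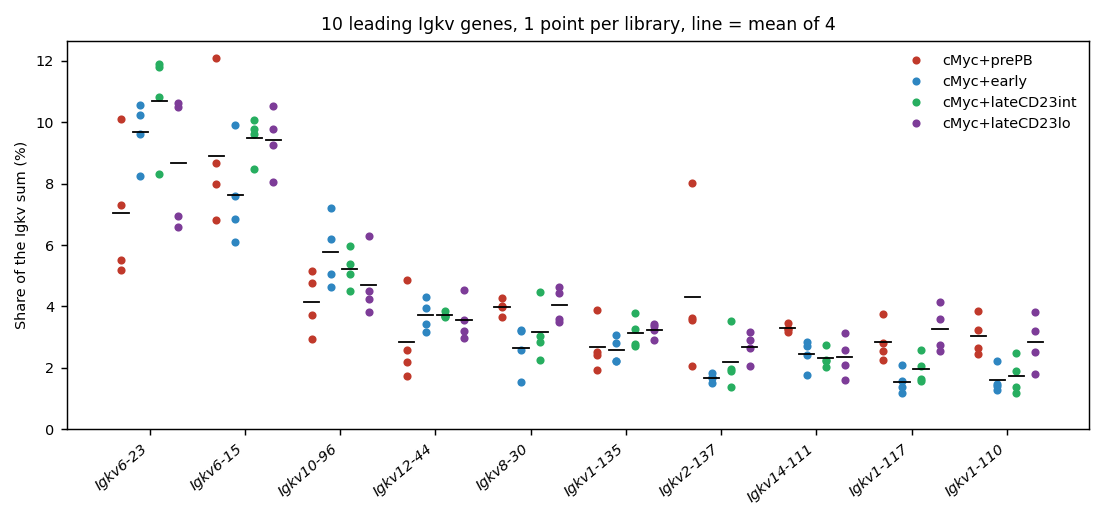
Share of the Igkv sum (y axis, percent) of the 10 most abundant Igkv genes (x axis), with 1 point per library coloured by subpopulation and a black line at the mean of 4 libraries. Igkv6-23 and Igkv6-15 spread between about the same bounds, 5.19 to 11.9% and 6.11 to 12.1%, and Igkv2-137 reached 8.02% in 1 cMyc+prePB library.

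The most abundant gene of each library was always Igkv6-23 or Igkv6-15. Igkv6-23 led in 11 libraries, and Igkv6-15 in 5, which were cMyc+prePB replicates 2 and 4, cMyc+lateCD23int replicate 2, and cMyc+lateCD23lo replicates 2 and 4. Igkv6-23 was at 7.32, 5.19, 10.1 and 5.51% of the sum in cMyc+prePB replicates 1 to 4, 10.6, 8.25, 10.2 and 9.63% in cMyc+early, 11.9, 8.30, 11.8 and 10.8% in cMyc+lateCD23int and 10.6, 6.95, 10.5 and 6.60% in cMyc+lateCD23lo. Replicate 2 was the lowest library for this gene in 3 of the subpopulations and next to lowest in cMyc+lateCD23lo. Igkv6-15 was at 6.81, 7.98, 8.67 and 12.1% in the cMyc+prePB libraries, 7.59, 6.11, 9.92 and 6.86% in cMyc+early, 9.77, 10.1, 8.48 and 9.60% in cMyc+lateCD23int and 8.05, 9.79, 9.27 and 10.5% in cMyc+lateCD23lo, and the subpopulations overlapped. Neither gene passed the limma F test over the 4 subpopulations (adjusted p = 0.790 for Igkv6-23 and 0.432 for Igkv6-15).

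The spread of these shares exceeded that of read counting. For the 10 most abundant genes, the SD between libraries of a subpopulation was 7.79 (Igkv14-111) to 24.5 (Igkv2-137) times the SD expected from counting reads alone. Igkv2-137 was at 3.54, 2.07, 3.61 and 8.02% in cMyc+prePB replicates 1 to 4 and at most 1.83% in cMyc+early, without overlap, but its normalized count did not pass the F test (limma adjusted p = 0.119). It passed without cMyc+prePB replicate 2 (0.0174) and with all libraries in DESeq2 (adjusted p = 0.000327), which called 265 of all 12505 tested genes over the 4 subpopulations where limma called 51. Igkv8-30, Igkv10-96, Igkv12-44, Igkv1-135 and Igkv14-111 had F test adjusted p-values of 0.285, 0.912, 0.606, 0.310 and 0.324 in limma. Igkv14-111 was the steadiest of them in cMyc+prePB, at 3.29 ± 0.120% (n = 4).

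Igkv transcripts as a whole took less than 1% of the transcriptome in all 4 gates. The Igkv sum was 0.628, 0.330, 0.339 and 0.324% of all normalized counts in cMyc+prePB replicates 1 to 4 and 0.374, 0.266, 0.304 and 0.257% in cMyc+early. It was 0.400, 0.357, 0.255 and 0.307% in cMyc+lateCD23int and 0.479, 0.407, 0.398 and 0.394% in cMyc+lateCD23lo. All cMyc+lateCD23lo libraries were above all cMyc+early libraries, and cMyc+prePB replicate 1 was far above the other 3 of its group. Over the 4 subpopulations the difference did not pass (exact permutation test over 2627625 divisions, p = 0.188, adjusted over 4 measures 0.367). Between cMyc+early (0.300 ± 0.0531%, n = 4) and cMyc+lateCD23lo (0.420 ± 0.0399%) the two-sided exact permutation p was 0.0286, the smallest that 4 against 4 libraries can give, and 0.171 after adjustment over 6 pairs. Without cMyc+prePB replicate 1 the exact permutation p over the subpopulations was 0.0255.

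The constant exon of the kappa chain, Igkc, moved with its V genes. Igkc was at 241790, 123417, 127901 and 121934 normalized counts in cMyc+prePB replicates 1 to 4, 159735, 96973, 134421 and 92853 in cMyc+early, 177468, 140137, 94821 and 120433 in cMyc+lateCD23int, and 206201, 151532, 166684 and 158637 in cMyc+lateCD23lo. The ratio of the Igkv sum to Igkc stayed between 0.548 and 0.599 in all 16 libraries, with the highest value in cMyc+prePB replicate 1. Summed plasma cell markers differed beside the Igkv sum. The summed level of the 7 markers Sdc1, Prdm1, Xbp1, Jchain, Tnfrsf17, Mzb1 and Irf4 ranged from 48465 to 122980 in cMyc+prePB libraries, 32226 to 39886 in cMyc+early, 39703 to 70854 in cMyc+lateCD23int and 67063 to 104865 in cMyc+lateCD23lo. Jchain and Mzb1 carried most of it, the plasma cell receptor gene Tnfrsf17 was at 0 in 15 libraries and Sdc1, which encodes the plasma cell surface protein CD138, was at 0 in 9. The part of these genes in the Igkv level was not tested.

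**Figure D3:**
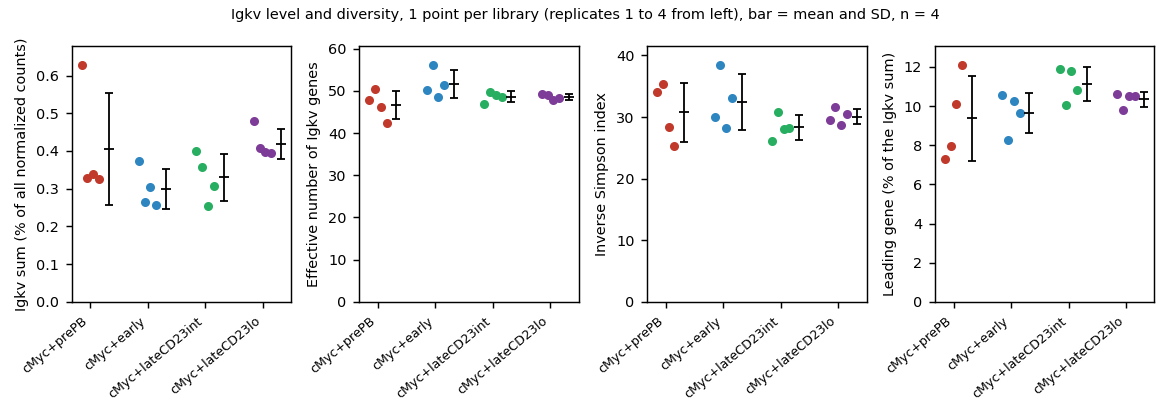
Igkv sum (percent of all normalized counts), effective number of Igkv genes, inverse Simpson index and share of the leading gene (percent of the Igkv sum), with 1 point per library for each subpopulation (replicates 1 to 4 from left) and bars at mean ± SD (n = 4). cMyc+prePB replicate 1 stands apart in the Igkv sum at 0.628%, and cMyc+early has the highest mean effective number, 51.6.

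Diversity of V gene use was high in all subpopulations. The effective number of V genes, the exponential of the Shannon entropy of the shares, is the number of equally used genes that would give the same entropy. It was 47.9, 50.4, 46.1 and 42.3 in cMyc+prePB replicates 1 to 4 and 50.2, 56.2, 48.5 and 51.5 in cMyc+early. It was 46.9, 49.8, 49.1 and 48.6 in cMyc+lateCD23int and 49.3, 49.1, 47.8 and 48.2 in cMyc+lateCD23lo. The highest value was in cMyc+early replicate 2, the lowest in cMyc+prePB replicate 4, and the groups overlapped. The means were 46.7 ± 3.42, 51.6 ± 3.29, 48.6 ± 1.26 and 48.6 ± 0.729 (n = 4 each), a difference that did not pass (exact permutation p = 0.0592, adjusted 0.237).

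This measure was close to the threshold and moved across it under other choices. Leaving out the leading gene, Igkv6-23, gave means of 47.7, 55.3, 53.0 and 51.1 in cMyc+prePB, cMyc+early, cMyc+lateCD23int and cMyc+lateCD23lo (exact permutation p = 0.00183, not adjusted). Leaving out cMyc+prePB replicate 2 or cMyc+early replicate 3 gave exact permutation p-values of 0.00421 and 0.0153. Thinning every library to the 50603 Igkv reads of the shallowest left the means at 46.7, 51.6, 48.6 and 48.6. Inverse Simpson indices, which weight abundant genes more, were 30.8 ± 4.75, 32.4 ± 4.48, 28.3 ± 1.97 and 30.1 ± 1.22 (n = 4 each, exact permutation p = 0.443). The leading gene held 9.38 ± 2.18, 9.67 ± 1.02, 11.1 ± 0.866 and 10.4 ± 0.384% of the sum (n = 4 each, exact permutation p = 0.275, adjusted 0.367), and without cMyc+prePB replicate 4, the library with the highest leading share, the exact permutation p was 0.0204.

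Averaged over all pairs, V gene use was more alike within than between subpopulations, though not in each of them. The Bray-Curtis distance, which is 0 for the same shares and 1 for no gene in common, averaged 0.160 over the 24 pairs within a subpopulation and 0.189 over the other pairs. The difference of -0.0296 was larger than nearly all divisions of the libraries gave (one-sided exact permutation p = 0.000139). Pairs with a cMyc+prePB library had larger mean distances, and they are more frequent among the other pairs than within subpopulations. This test therefore cannot separate the wide spread of cMyc+prePB from likeness within subpopulations. Without the cMyc+prePB libraries the difference was -0.0158 with p = 0.0168 in the same exact permutation test. The subpopulations were not equally uniform, with mean distances within cMyc+lateCD23int, cMyc+lateCD23lo, cMyc+early and cMyc+prePB of 0.109, 0.131, 0.143 and 0.256. The mean within cMyc+early was above that between cMyc+early and cMyc+lateCD23int (0.133), and the mean within cMyc+lateCD23lo equalled that to cMyc+lateCD23int (0.131).

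**Figure D4:**
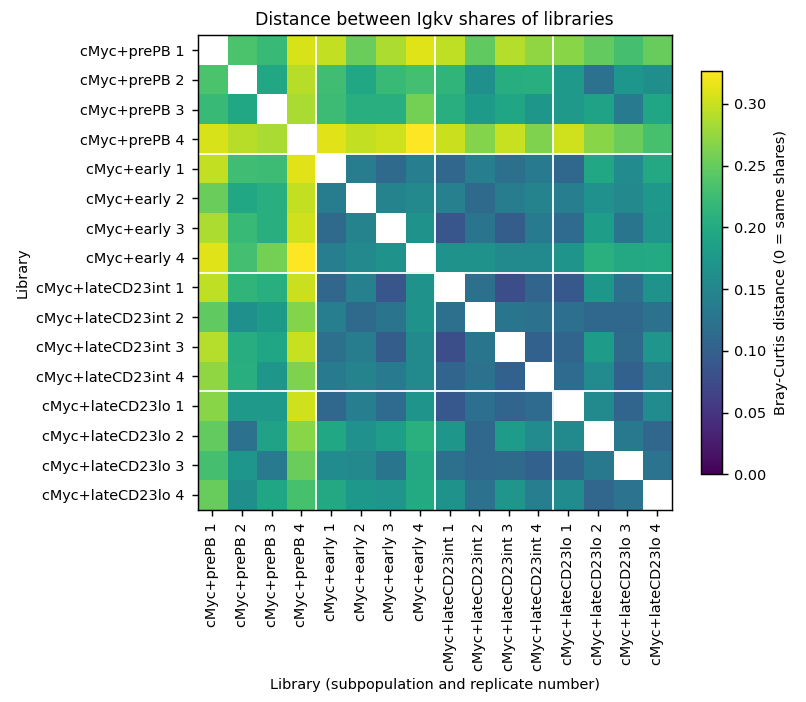
Bray-Curtis distance of Igkv shares for each pair of the 16 libraries (rows and columns, colour scale from 0), ordered by subpopulation and replicate number, with white lines between subpopulations. The cMyc+prePB rows are the lightest, with replicate 4 at a mean distance of 0.287 from the other 15 libraries, and distances within cMyc+prePB average 0.256.

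The cMyc+prePB libraries were about as far from each other as from the rest, as the distance plot shows. Distances within cMyc+prePB were 0.196 to 0.307. Their mean, 0.256, lay near that between cMyc+prePB and cMyc+early (0.259), and above those to cMyc+lateCD23int (0.236) and cMyc+lateCD23lo (0.211). The mean distance to the other 15 libraries was 0.267, 0.201, 0.202 and 0.287 for cMyc+prePB replicates 1 to 4 and 0.149 to 0.200 for the other 12 libraries. Among the other 3 subpopulations, cMyc+early and cMyc+lateCD23int were 0.133 apart, cMyc+lateCD23int and cMyc+lateCD23lo 0.131, and cMyc+early and cMyc+lateCD23lo 0.166.

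Libraries with the same replicate number had more alike V gene use once subpopulations were held in place. The nearest library was from the same subpopulation for 7 of the 16 libraries and had the same replicate number for another 7. cMyc+prePB replicates 2, 3 and 4 were each nearest to the cMyc+lateCD23lo library of the same number, at distances of 0.123, 0.134 and 0.231. cMyc+early replicates 1 and 2 were nearest to cMyc+lateCD23int replicates 1 and 2. Over all divisions of the libraries, the mean distance of same-numbered pairs (0.176) was not detectably below that of other pairs (0.185, one-sided exact permutation p = 0.0912). When numbers were exchanged only within subpopulations, which keeps the differences between subpopulations in place, p was 7.23e-05, the smallest that the 13824 arrangements of this exact permutation test can give. Without the cMyc+prePB libraries the exact permutation p-values were 0.0339 and, within subpopulations, 0.00174, the smallest of 576 arrangements. What the number marks is not given in the sources used here.

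In normalized counts, many V genes varied more among the cMyc+prePB libraries than within the other subpopulations. Of the 102 tested Igkv genes, cMyc+prePB had the largest SD of the 4 subpopulations (log2 scale) for 58, or 56.9%, while it had the largest SD for 26.2% of all 12505 tested genes. The median SD of the Igkv genes on that scale was 0.82 for cMyc+prePB, 0.59 for cMyc+early, 0.54 for cMyc+lateCD23int and 0.41 for cMyc+lateCD23lo. Over all tested genes the medians were 0.55, 0.55, 0.52 and 0.50. These SDs are not of shares, so they include differences in the Igkv sum between libraries. That sum was 144738 normalized counts in cMyc+prePB replicate 1 and 69736 to 73332 in the other cMyc+prePB libraries. Its part in the SDs was not tested. The library with the highest normalized count was a cMyc+prePB library for 42 of the 102 genes, a cMyc+lateCD23lo library for 40, a cMyc+early library for 12 and a cMyc+lateCD23int library for 8. Among all tested genes these shares were 27.2%, 24.1%, 25.2% and 23.4%. Most of the genes highest in cMyc+prePB or cMyc+lateCD23lo were highest in replicate 1 of that subpopulation. Those libraries also had the highest Igkv sum of their groups, at 0.628 and 0.479% of all normalized counts. The counts compared here were not divided by that sum.

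Some V genes were far higher in 1 cMyc+prePB library than in any other library. These genes were chosen after their values were seen and were not tested. Igkv8-34 was at 7042 normalized counts in cMyc+prePB replicate 1, 13.0 times the next library (541), and this library held 73.5% of its counts over all 16. It made up 4.87% of the Igkv sum there and 0.0616 to 0.734% elsewhere. Igkv9-124 was at 5748 in the same library against at most 1000 in any other, and Igkv4-90 at 1595 against at most 204. In cMyc+prePB replicate 4 it was Igkv4-69, at 2377 against at most 253 elsewhere. A share above 50% of a gene's counts in a single library was reached by Igkv8-34 and Igkv7-33 among the 102 genes, and by 0.736% of all tested genes.

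Gene by gene, 3 of the 102 tested Igkv genes differed over the 4 subpopulations, where 0.408% of all 12505 tested genes did (limma F test, adjusted p under 0.05). They were Igkv7-33 (adjusted p = 0.0227), Igkv1-117 (0.0240) and Igkv1-110 (0.0259). At an unadjusted p under 0.05, 23 of the 102 (22.5%) and 10.2% of all tested genes were counted.

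**Figure D5:**
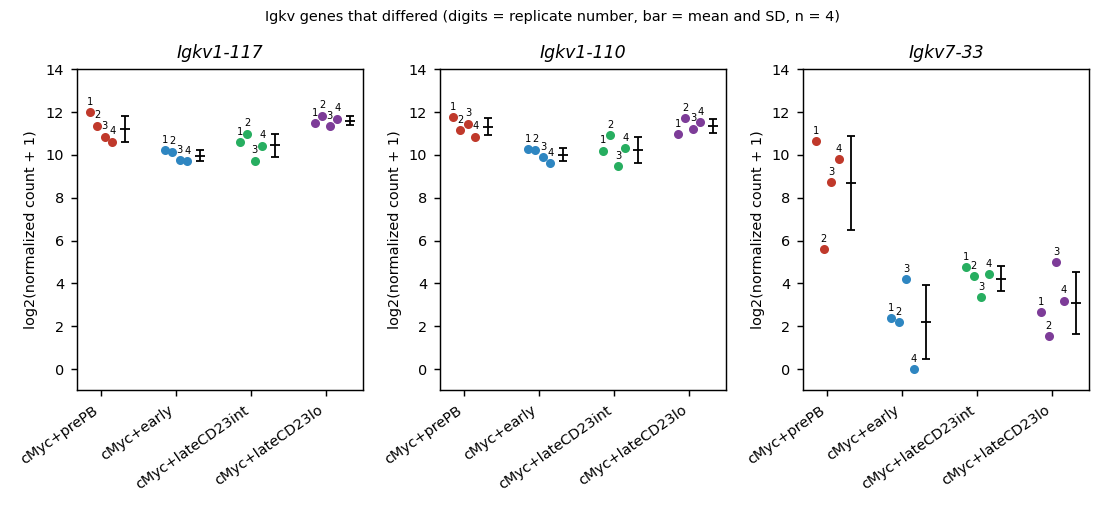
Normalized counts, as log2(normalized count + 1), of Igkv1-117, Igkv1-110 and Igkv7-33 in each library (y axis) by subpopulation (x axis), with replicate numbers beside the points and bars at mean ± SD (n = 4). For the Igkv1 genes the cMyc+early libraries lie below the cMyc+lateCD23lo libraries, and for Igkv7-33 every cMyc+prePB library lies above all others, with replicate 2 lowest at 48.0 normalized counts.

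Igkv7-33, the only member of its family, was low outside cMyc+prePB, with at most 30 reads in a library. Its normalized counts were 1583, 48.0, 427 and 902 in cMyc+prePB replicates 1 to 4 (1473, 58, 474 and 1000 reads), and 4.19, 3.54, 17.3 and 0 in cMyc+early (4, 4, 18 and 0 reads). They were 25.9, 19.3, 9.34 and 20.4 in cMyc+lateCD23int and 5.39, 1.87, 30.6 and 8.16 in cMyc+lateCD23lo. All cMyc+prePB libraries were above all of the other 12, though replicate 2 was much lower than the other 3 and closest to cMyc+lateCD23lo replicate 3. As a part of the Igkv sum it was 1.09, 0.0682, 0.583 and 1.29% in cMyc+prePB and at most 0.0321% elsewhere.

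Igkv7-33 rose in cMyc+prePB relative to cMyc+early and was the 1 Igkv gene called there by limma without a replicate block, where 0.192% of all tested genes were called, with a mean of 740 ± 662 against 6.26 ± 7.60 normalized counts (n = 4 each, 118-fold). This fold rested on single libraries, since it was 73.3 without cMyc+prePB replicate 1 and 287 without cMyc+early replicate 3. The log2 fold change was 6.51 ± 1.10 (SE) on the log2(normalized count + 1) scale, which depends on the added 1 at such low counts (limma adjusted p = 0.0203). It rose relative to cMyc+lateCD23lo as well (5.61 ± 1.10, limma adjusted p = 0.0332), again as the 1 Igkv gene called, where 0.264% of all tested genes were. Against cMyc+lateCD23int it did not pass (4.48 ± 1.10 on the same scale, adjusted p = 0.126). Against cMyc+early the limma adjusted p was 0.0534, 0.0650 and 0.0550 without cMyc+prePB replicates 1, 3 and 4, and 0.0592 and 0.0731 without cMyc+early replicates 1 and 4. Against cMyc+lateCD23lo it was 0.0930 and 0.164 without cMyc+prePB replicates 3 and 4, 0.0725, 0.0970 and 0.0847 without cMyc+lateCD23lo replicates 1, 2 and 4, and 0.0509 without cMyc+lateCD23int replicate 4. Over the 4 subpopulations it was 0.0856, 0.0882 and 0.128 without cMyc+prePB replicates 1, 3 and 4.

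Igkv1-117 and Igkv1-110, the close relatives shown above, fell together in cMyc+early relative to cMyc+lateCD23lo. Igkv1-117 was at 1210, 1142, 864 and 849 normalized counts in cMyc+early replicates 1 to 4 and 2891, 3649, 2606 and 3311 in cMyc+lateCD23lo, without overlap. Its counts were 4089, 2640, 1861 and 1576 in the cMyc+prePB libraries and 1565, 2045, 852 and 1386 in those of cMyc+lateCD23int. The cMyc+prePB libraries were above all cMyc+early libraries, and those of cMyc+lateCD23int overlapped with cMyc+early. Igkv1-110 was at 1237, 1213, 950 and 789 in cMyc+early, 2029, 3351, 2402 and 2949 in cMyc+lateCD23lo, 3527, 2267, 2828 and 1856 in cMyc+prePB and 1182, 1959, 717 and 1283 in cMyc+lateCD23int. Again cMyc+early and cMyc+lateCD23lo did not overlap.

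These were the 2 Igkv genes called between cMyc+early and cMyc+lateCD23lo, where 0.28% of all tested genes were. Igkv1-117 was 3.06-fold higher in cMyc+lateCD23lo (3114 ± 459 against 1016 ± 187, n = 4 each), a log2 difference of cMyc+early from cMyc+lateCD23lo of -1.62 ± 0.28 (SE, limma adjusted p = 0.0130). Igkv1-110 was 2.56-fold higher (2683 ± 584 against 1047 ± 216), a log2 difference of -1.35 ± 0.28 (limma adjusted p = 0.0406). With every library scaled to the same Igkv sum, so that only shares of the repertoire were compared, neither passed (limma adjusted p = 0.0540 and 0.297). For Igkv1-117 the limma adjusted p was 0.0514 and 0.0595 without cMyc+early replicates 3 and 4, and 0.0644 and 0.0560 without cMyc+lateCD23lo replicates 2 and 4. For Igkv1-110 it was above 0.05, between 0.0533 and 0.161, without any 1 of cMyc+early replicates 1 to 4, cMyc+lateCD23lo replicates 2 to 4, cMyc+prePB replicates 2 and 3 and cMyc+lateCD23int replicates 1 and 4. The ratio of Igkv1-110 to Igkv1-117, which estimation of shared reads can move, was 0.702 to 1.52 among the 16 libraries. The summed plasma cell markers given above also separated these subpopulations, with most of the sum from Jchain. Jchain, Mzb1 and Prdm1 were each higher without overlap in cMyc+lateCD23lo, Prdm1 at low counts. Xbp1 (3284 to 3979 in cMyc+early, 3692 to 5091 in cMyc+lateCD23lo), Irf4 (529 to 906 and 287 to 835) and Sdc1 overlapped, and Tnfrsf17 was at 0 in both. The part of these markers was not tested.

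In the other 3 comparisons no Igkv gene was called by limma. Between cMyc+early and cMyc+lateCD23int, where 0.008% of all tested genes were called by limma, the count was 0 in limma, edgeR and DESeq2, and 2 Igkv genes (1.96%) had an unadjusted limma p under 0.05, against 3.71% of all tested genes. Between cMyc+lateCD23int and cMyc+lateCD23lo, also at 0.008% in limma, it was 0 in all 3 tools, and 9 (8.82%), all lower in cMyc+lateCD23int, had an unadjusted limma p under 0.05, against 6.28% of all tested genes. DESeq2 called 20 and 15 of all 12505 tested genes in these comparisons. Between cMyc+prePB and cMyc+lateCD23int, at 0.144% in limma, it was 0 in limma and edgeR, and DESeq2 called 5 Igkv genes among 130 of all 12505. There, 16 Igkv genes (15.7%) and 8.77% of all tested genes had an unadjusted limma p under 0.05. Of the comparisons with calls, cMyc+prePB against cMyc+early had 22 (21.6%) at this unadjusted limma threshold, against 8.58% of all tested genes. For cMyc+prePB against cMyc+lateCD23lo it was 21 (20.6%, against 12.7%), and for cMyc+early against cMyc+lateCD23lo 19 (18.6%, against 10.3%). In that order, 14, 1 and 1 were higher in the first-named subpopulation. With equal Igkv sums the counts were 34, 18 and 12, against 1086, 1586 and 1285 of all tested genes.

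The Igkv genes were lower, on balance, relative to cMyc+lateCD23lo. Their median log2 difference was -0.46 for cMyc+early, -0.39 for cMyc+lateCD23int and -0.38 for cMyc+prePB, each against cMyc+lateCD23lo, where the medians over all tested genes were -0.0053, 0.016 and -0.0064. These 3 comparisons share the cMyc+lateCD23lo libraries. Between cMyc+prePB and cMyc+early the Igkv median was -0.0055 and that of all genes 0.013. With libraries scaled to the same Igkv sum the medians against cMyc+lateCD23lo were 0.083, 0.015 and -0.19, so that the sign turned for cMyc+early and cMyc+lateCD23int.

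Among other genes of the antigen receptor, heavy chain constant genes differed in cMyc+prePB. Of a list of 26 light chain, heavy chain constant and receptor genes, 19 were tested. In cMyc+prePB relative to cMyc+early 2 were called, Igha and Ighg3, which encode the IgA and IgG3 heavy chain constant regions. Igha was at 21278, 2686, 10770 and 6557 normalized counts in cMyc+prePB replicates 1 to 4 and 340 to 610 in cMyc+early (log2 fold change 4.17 ± 0.47, limma adjusted p = 0.000567). Ighg3 was at 3873 ± 943 and 1139 ± 515 (n = 4 each, limma adjusted p = 0.0203). Igha was also the 1 gene of the list called in cMyc+prePB against cMyc+lateCD23int and against cMyc+lateCD23lo.

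Jchain, the joining chain of polymeric IgM and IgA, was the 1 gene of the list called between cMyc+early and cMyc+lateCD23lo, where it was lower in cMyc+early, like Igkv1-117 and Igkv1-110. It was at 25890, 18862, 25960 and 23781 in cMyc+early and 51542, 59946, 63385 and 84470 in cMyc+lateCD23lo (log2 difference -1.44 ± 0.29, limma adjusted p = 0.0394). None of the 19 was called between cMyc+early and cMyc+lateCD23int or between cMyc+lateCD23int and cMyc+lateCD23lo in limma. Igkc was not called in any comparison, and neither were the lambda constant genes Iglc1, Iglc2 and Iglc3. These lambda genes held 12.4 to 23.9% of the counts on light chain constant genes, with both the lowest and the highest value in cMyc+prePB, in replicates 2 and 4.

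The labelled cell type was checked against its markers. The 5 B cell and 5 GC B cell markers were present in all libraries, with summed levels from 80224 to 230171 and from 19497 to 40027 normalized counts. Summed T cell markers (6 genes) ranged from 0 to 139, myeloid markers (6 genes) from 0.827 to 1163 with Itgam at 0 in all libraries, and erythroid markers (5 genes) from 120 to 3011. Of the sort genes, Fcer2a (CD23) was lower in cMyc+lateCD23lo than in cMyc+early (2274 ± 1172 against 13398 ± 4314, n = 4 each, limma adjusted p = 0.00434). Fcer2a was at 8594 ± 4492 in cMyc+lateCD23int (n = 4). There it was not called against cMyc+early, nor against cMyc+lateCD23lo (limma adjusted p = 0.441). Cr2, which encodes the CD21 and CD35 proteins of the same gates, was at 6638 ± 1826 in cMyc+early, 6928 ± 1497 in cMyc+lateCD23int and 4738 ± 2939 in cMyc+lateCD23lo (n = 4 each). It was not called between any of these 3 (limma adjusted p = 0.534 for cMyc+early against cMyc+lateCD23lo), so that its transcript did not separate the gates as their labels do. In cMyc+prePB it was at 1860 ± 811 (n = 4), which was called as lower against cMyc+early, with an adjusted p of 0.0269 in limma. Cd69, whose protein defines the cMyc+prePB gate, averaged 3453 ± 1297 there and 2277 to 3762 in the other subpopulations, and the libraries overlapped. The Myc level was 3823 ± 1022 for cMyc+prePB, 2503 ± 1214 for cMyc+early, 2079 ± 1245 for cMyc+lateCD23int and 1427 ± 229 for cMyc+lateCD23lo (n = 4 each). Myc was not called over the 4 subpopulations (limma F test adjusted p = 0.350) or in any pair (limma adjusted p = 0.151 for cMyc+prePB against cMyc+lateCD23lo).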

How the data were processed

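Per the submitters' processing notes, reads were processed with Trimmomatic 0.36, STAR 2.5.2a, RSEM 1.2.31 and DESeq2 1.20.0 in R 3.5.1 on GRCm38, after library preparation with a low-input kit. The strand setting, the order of these steps and the number of sorted cells per library are not given in the sources used here. The deposited values are a signal, in which each library's gene counts were scaled by its own size factor, and undoing that scaling gave whole reads for 100% of values (tolerance 0.001 read). A share is the percent of the Igkv sum of a library. The 12505 genes whose normalized count averaged 10 or more were tested on log2(normalized count + 1) with limma 3.58.1, in 1 model over the 16 libraries with a trended prior and no block, and called at a Benjamini-Hochberg adjusted p under 0.05 over all tested genes. edgeR 4.0.16 and DESeq2 1.42.0 on the recovered reads were alternatives, as were other pseudocounts, filters, scalings and the replicate block. Levels, diversity and distances were compared by exact permutation over libraries. On simulated counts for cMyc+prePB against cMyc+early (12505 genes, 100 changed per fold), limma recovered 48 of the 100 genes changed 4-fold and 69 of the 100 changed 8-fold. Genes named were the 10 with the highest mean share, the leading gene of each library and those called; others are said to have been chosen after their values were seen. The members, lists and tests were chosen with earlier results of these data known. Promoter and protein sequences of Igkv genes were not used here.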

Additional observations from a re-analysis of the deposited data

Results flagged for a closer look

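In 4 of 64 sets of 4 libraries examined (4 subpopulations, the 11 genes named by the rule and summary measures), 1 library stood apart from its group by Dixon's 95% criterion, which chance meets in about 1 in 20 sets. In cMyc+prePB replicate 1 the Igkv sum was 0.628% of all normalized counts, against 0.324 to 0.339% in the other 3, and the ratio of the Igkv sum to Igkc was 0.599, against 0.570 to 0.573. In cMyc+lateCD23lo replicate 1 the Igkv sum was 0.479%, against 0.394 to 0.407%. In cMyc+lateCD23lo replicate 2 the leading gene held 9.79% of the Igkv sum, against 10.5 to 10.6%.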

How the results depend on the processing

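The lower mean distance of Igkv shares within subpopulations, taken over all pairs, passed in every alternative run (exact permutation p = 1.29e-05 to 0.0168, and 3.88e-05 to 0.00634 with 1 library left out), and inverse Simpson indices passed in none. Counts of Igkv genes depended on the fit. Over the 4 subpopulations (3 in limma) they were 0 without the filter, 1 with equal Igkv sums, 0 without the trended prior and 10 in DESeq2, and 1 to 3 with 1 library left out. For cMyc+prePB against cMyc+early (1) they were 0 without the filter, 2 with equal Igkv sums, 9 in DESeq2, and 0 to 3 with 1 library left out. For cMyc+early against cMyc+lateCD23lo (2) they were 1 without the filter, 1 with equal totals, 0 with equal Igkv sums, 0 without the trended prior, 1 in edgeR, 4 in DESeq2, and 0 to 2 with 1 library left out. For cMyc+prePB against cMyc+lateCD23int (0) they were 5 in DESeq2 and 0 to 1 with 1 library left out. For cMyc+prePB against cMyc+lateCD23lo (1) they were 0 with a pseudocount of 0.5, 0 without the filter, 0 with a mean of at least 50, 0 without the trended prior, 3 in DESeq2, and 0 to 2 with 1 library left out. Over all tested genes, the F test called 51 in limma, 31 without the filter, 25 without the trended prior, 29 in edgeR and 265 in DESeq2. In the order of the pairs just given, all tested genes called numbered 24, 35, 18 and 33 in limma, 131, 173, 130 and 273 in DESeq2, 8, 23, 11 and 31 in edgeR, 4, 29, 9 and 21 without the filter, and 12, 24, 9 and 28 without the trended prior, so that DESeq2 called more of all genes as well as more Igkv genes. The cause of these differences was not tested. With 1 library left out, exact permutation p-values ranged from 0.0255 to 0.327 for the Igkv sum, 0.00421 to 0.218 for the effective number, 0.0204 to 0.457 for the leading share and 0.0414 to 0.291 for the distance within replicate numbers, which was lowest without cMyc+prePB replicate 1 (0.0414), cMyc+lateCD23int replicate 4 (0.0423) and cMyc+early replicate 4 (0.0460). The effective number had an exact permutation p of 0.0497 over annotated functional genes and 0.00183 without the leading gene. Distances within replicate numbers had exact permutation p-values of 0.0339 without the cMyc+prePB libraries and 0.00174 when numbers were exchanged within subpopulations as well, both added after the data were seen.

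Deviations from group means correlated above 0.1 in 5 of 24 same-numbered pairs over all tested genes (mean 0.0509, against -0.0166 for other pairs). Taking deviations from group means largely fixes the mean for other pairs, at the opposite sign, so it adds no separate information. The main fits used no block, because the sources used here do not say what the number marks. They therefore leave out any pairing of libraries that share a number. Over the 102 tested Igkv genes 13 of the 24 were above 0.1 (range -0.207 to 0.338, mean 0.0935, against -0.0307 for other pairs). On either set of genes, correlations with libraries of the other subpopulations were averaged by number. For 11 of 16 libraries their own number had the highest average. With the replicate number as a block, limma called 6 Igkv genes over the 4 subpopulations (of 173 called among all genes), 6 for cMyc+prePB against cMyc+early (of 65), 2 for cMyc+prePB against cMyc+lateCD23lo (of 192) and 3 for cMyc+early against cMyc+lateCD23lo (of 90). Beside Igkv7-33, those called with the block between cMyc+prePB and cMyc+early were Igkv1-117, Igkv1-110, Igkv2-137 and Igkv8-19, higher in cMyc+prePB, and Igkv5-37, lower there (limma adjusted p = 0.0123, 0.0270, 0.0263, 0.0328 and 0.0173). edgeR with the replicate block, added after the data were seen, called 5 of 129, 6 of 54, 2 of 142 and 3 of 63. Igkv2-137 had an F test adjusted p of 0.0346 in limma and 0.0491 in edgeR with the block. In exact permutations of subpopulations within the replicate block, p was 0.0428 for the Igkv sum, 0.0288 for the effective number and 7.23e-05 for the distance within subpopulations. For the distance within replicate numbers, exchanging numbers within subpopulations gave an exact permutation p of 7.23e-05.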
